A study of Mus musculus with 6 samples.

Results

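The genes described here encode the WNT ligands, their receptors and co-receptors, the extracellular proteins that block or enhance them, and feedback genes of the pathway. They were taken by symbol from the GENCODE M21 annotation: the numbered Wnt, Fzd, Sfrp, Dkk and Rspo genes, and Trabd2b, Notum, Axin2, Lef1, Tcf7, Nkd1, Nkd2, Lrp5, Lrp6, Ror1, Ror2 and Ryk. The rule found 51 of the 23154 genes in the count tables. Of these, 7 had no read in any library, 14 had reads but too few to be tested, and 30 were tested. Wnt3a and Rspo4 were not analysed here.

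RNA-seq was performed on C2C12 cells, an established mouse myoblast line. One group carried a doxycycline-inducible HA-NUR77 construct (pINDUCER20b-HA-NUR77), which encodes the orphan nuclear receptor NUR77 with an HA tag, and the control group carried the same vector with GFP (pINDUCER20b-GFP). Both groups received doxycycline at 1 µg/mL, 24 hours after seeding and for 18 hours, and each had 3 libraries from separate dishes. The record is not uniform: the growth protocol given for the GFP samples names the HA-NUR77 line, whereas their titles and the genetic modification entry name GFP, which was followed here. Each construct is represented by 1 stable line, and an effect of the line cannot be told apart from one of the construct.

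WNT proteins are lipid-modified secreted ligands. In the canonical branch they bind a Frizzled receptor together with LRP5 or LRP6, which stops the destruction complex from degrading beta-catenin, so that beta-catenin can act with TCF and LEF factors on target genes. Other branches use ROR1, ROR2 and RYK. Axin2, Nkd1, Nkd2, Notum and Lef1 are known targets of the pathway, and several of them feed back on it. In muscle, WNT signalling is known to act on satellite cells, where WNT7A binds Frizzled-7, and on the differentiation of myoblasts.

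Library totals ran from 13906096 to 22821446 counts. Nr4a1, which encodes mouse NUR77, stood at 22.5 ± 3.03 CPM (counts scaled to the effective library size) in the HA-NUR77 libraries and 20.4 ± 7.43 CPM in the GFP libraries (SD, n = 3; edgeR adjusted p = 0.698). No label or note used here names the species of the insert, so this gene does not check the labels. Among markers of the labelled cell type, Des (desmin) stood at 3298 ± 381 and 2500 ± 429 CPM. Genes of differentiating myotubes were also abundant in both groups. In bulk RNA, fewer cells of a type and less RNA per cell cannot be told apart.

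The windows before start sites of 4 lower genes are given because TCF and LEF factors bind short motifs in the regulatory DNA of pathway targets. RefSeq start sites on GRCm38.p6 were found for 33 of the 51 genes, 11 of them among the genes lower in HA-NUR77. In the 250 bases before each start, both strands were searched for CTTTG followed by AT, AA, TT or TA, letters that TCF factors read, and for AAAGGTCA, the NBRE, which NUR77 is known to bind as a monomer. No window of these genes held both motifs. Wnt11 is shown for its match at chr7:98834862-98835111 (plus strand, no annotated gene). Lef1 is shown for the match before an internal start at chr3:131156044-131156293 (plus strand, inside the Lef1 gene and outside annotated exons). The other Lef1 windows, including those at the 5′ end of the gene, and the other Wnt11 window held no match. Axin2 (chr11:108920099-108920348, plus strand) and Nkd2 (chr13:73847632-73847881, minus strand) are feedback genes whose windows hold no match and no annotated gene. Each is written 5′ to 3′ and ends at the base before the start, and capitals mark a TCF match.
Wnt11: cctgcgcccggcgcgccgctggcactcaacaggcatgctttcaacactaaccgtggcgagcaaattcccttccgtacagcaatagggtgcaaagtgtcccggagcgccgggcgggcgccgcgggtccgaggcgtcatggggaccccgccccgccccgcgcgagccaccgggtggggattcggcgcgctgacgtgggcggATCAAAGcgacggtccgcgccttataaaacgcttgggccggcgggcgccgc
Lef1: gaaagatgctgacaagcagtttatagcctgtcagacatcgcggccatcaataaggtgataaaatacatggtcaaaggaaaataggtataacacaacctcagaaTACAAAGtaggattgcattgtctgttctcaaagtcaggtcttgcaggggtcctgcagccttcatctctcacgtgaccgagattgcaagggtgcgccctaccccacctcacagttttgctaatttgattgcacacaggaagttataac
Axin2: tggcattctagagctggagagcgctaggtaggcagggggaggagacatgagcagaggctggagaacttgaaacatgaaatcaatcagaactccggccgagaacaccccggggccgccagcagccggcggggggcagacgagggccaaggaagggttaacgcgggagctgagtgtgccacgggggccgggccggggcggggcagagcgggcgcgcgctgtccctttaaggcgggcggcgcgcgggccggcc
Nkd2: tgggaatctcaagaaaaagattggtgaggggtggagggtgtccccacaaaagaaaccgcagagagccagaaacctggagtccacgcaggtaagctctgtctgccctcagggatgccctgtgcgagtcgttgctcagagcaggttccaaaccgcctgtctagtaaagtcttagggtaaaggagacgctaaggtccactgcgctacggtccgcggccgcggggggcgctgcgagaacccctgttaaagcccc

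The Wnt11 match starts 51 bases before the start site and the Lef1 match 147 bases before it, both on the reverse strand. A TCF match was present for 5 of the 33 genes, against 16.8% of the 27025 genes with a RefSeq window. Besides Wnt11 and Lef1 these were Dkk1, Fzd7 and Wnt5b. An NBRE match was present for Tcf7 alone among the 33, against 1.55% of all genes. A match describes letters in a window and is not a binding site.

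Of the 30 genes tested, 17 were lower in the HA-NUR77 libraries and 0 were higher. Over all 12509 genes tested, 13.2% were lower and 12.4% were higher by the same test. The 17 comprised 3 of 7 WNT ligands, 8 of 14 receptors, 3 of 4 extracellular antagonists and 3 of 4 intracellular genes. Of the 17, Wnt11, Sfrp2 and Ror2 met the low-count filter in every GFP library but not in every HA-NUR77 library. They were therefore open to the test only through the group where they were higher. The median log2 fold change of the 30 was −0.49, against 0.01 over all genes. At least 2-fold falls were seen in 12 of the 30, against 3.69% of all genes. The groups did not overlap in the 17 called genes, 56.7% of the 30, against 45.6% of all genes. They overlapped in the other 13. The test was edgeR's quasi-likelihood test with Benjamini-Hochberg adjustment over all genes and a threshold of 0.05, and DESeq2 and limma-voom called the same 17 genes and none higher, where 13.4% and 13.3% of all genes were lower. No further member had an unadjusted p under 0.05. With HA-NUR77 replicate 1 left out, 10 were lower, against 7.16% of all genes, and with GFP replicate 1 left out, 10 against 6.74%. With the replicate number as a block the same 17 were lower, against 24.6% of all genes; 23.5% of all genes were then higher.

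**Figure D1:**
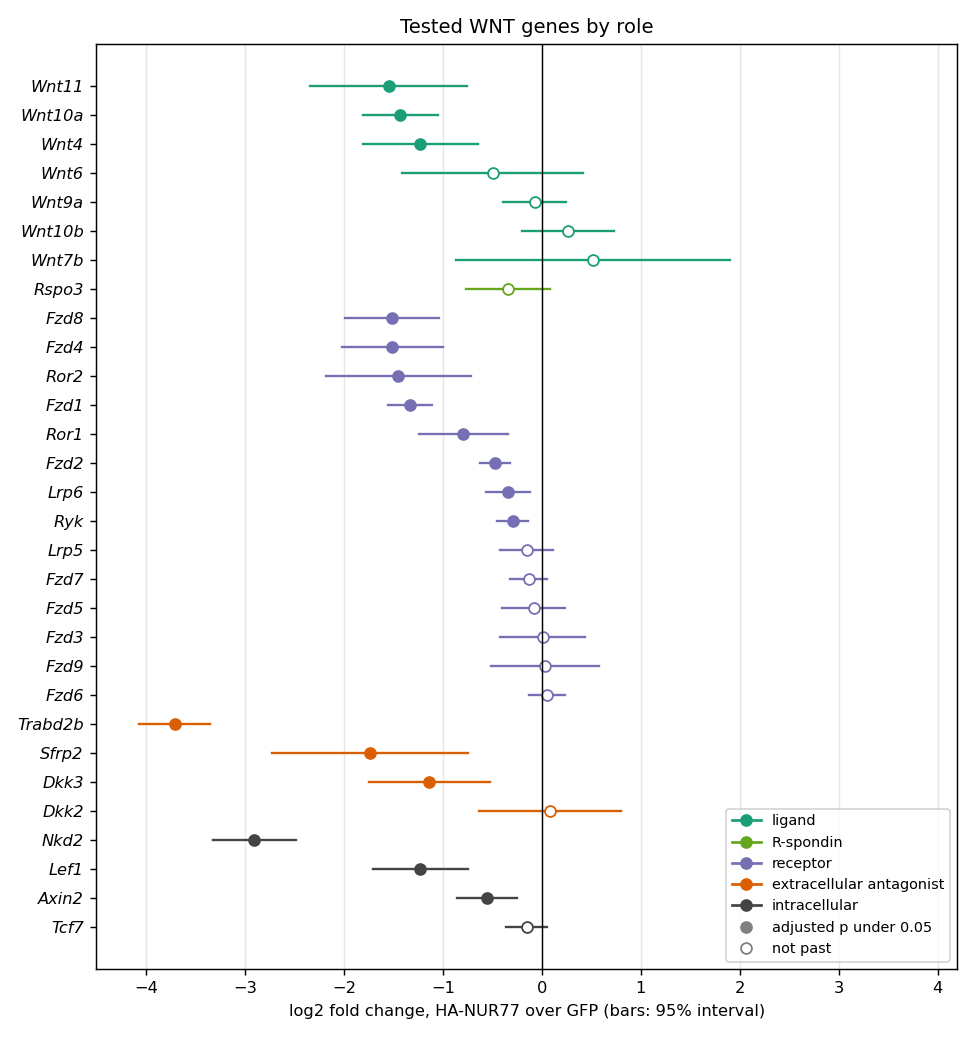
Fitted log2 fold change of each of the 30 tested WNT genes (horizontal axis, HA-NUR77 over GFP) with its 95% interval as a bar, grouped by role in colour. Filled points passed the adjusted threshold; the 17 filled points all lie left of 0, from Trabd2b at −3.71 to Ryk at −0.30.

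Among the ligands, Wnt10a, Wnt4 and Wnt11 were lower, while Wnt9a, the most abundant ligand, did not pass the test. WNT10A is a canonical ligand of skin, hair and teeth. Wnt10a (chromosome 1, 74791516 to 74804179) stood at 12, 17 and 11.8 CPM in HA-NUR77 replicates 1, 2 and 3 and at 34.5, 42.3 and 34.2 CPM in the GFP replicates. Every HA-NUR77 library lay below every GFP library, and the fall was 2.69-fold (log2 fold change −1.43, SE 0.16, edgeR adjusted p = 0.00148). Wnt4, known for its part in kidney and gonad development, stood at 1.4, 0.961 and 0.79 CPM against 2.37, 2.75 and 2.37 CPM. The fall was 2.34-fold (log2 fold change −1.23, SE 0.25, edgeR adjusted p = 0.013). Wnt11, a ligand of the polarity branch, rested on 29 reads against 71. Wnt11 met the low-count filter through GFP, the group where it was higher. Its level was 0.362, 0.568 and 0.646 CPM against 1.78, 1.03 and 1.76 CPM (log2 fold change −1.55, SE 0.34, edgeR adjusted p = 0.0167). The Wnt11 call was lost without HA-NUR77 replicate 1 (adjusted p = 0.0633) or GFP replicate 1 (0.0691).

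Wnt9a (chromosome 11, 59306928 to 59333552) stood at 47, 66.5 and 54.3 CPM in HA-NUR77 and at 52.6, 59.8 and 64.5 CPM in GFP. The groups overlapped, and the 95% interval of the fold ran from 0.762 to 1.19 (edgeR adjusted p = 0.717). The remaining tested ligands were Wnt6, Wnt7b and Wnt10b, with log2 fold changes of −0.50, 0.52 and 0.26 and adjusted p of 0.373, 0.54 and 0.355. Wnt6 and Wnt10a are neighbours on chromosome 1, on the same strand and 6193 bases apart. Wnt10b is the neighbour of Wnt1 on chromosome 15, 11706 bases away on the opposite strand, and Wnt1 had 3 reads in all.

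As a share of ligand transcripts per exon length, Wnt10a made up 21.9%, 22.3% and 19.5% in the HA-NUR77 libraries and 41.9%, 43.3% and 36.9% in the GFP libraries. Wnt9a made up 63.4%, 64.6% and 66.2% against 47.3%, 45.4% and 51.6%. These 2 ligands held most of the measured WNT transcripts in every library. Levels per length are given in TPM, the reads per kilobase of exon scaled to the same sum in each library. All 18 Wnt genes of the set, tested or not, summed to 79.8, 110 and 87.1 TPM in HA-NUR77 and 129, 149 and 138 TPM in GFP, with no overlap. Most of that difference lay in Wnt10a, at 19.7 ± 4.3 TPM in HA-NUR77 and 56.4 ± 7.07 TPM in GFP (SD, n = 3), so the sums do not describe the ligands as a family. Wnt9a stood at 59.9 ± 10.6 and 66.5 ± 5.26 TPM, so its larger share in HA-NUR77 was not a higher level. The shares and sums are descriptions without a test.

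Most other ligands were at the edge of detection. Wnt5a, the best known ligand of ROR2, had 1, 1 and 0 reads in HA-NUR77 and 5, 8 and 3 in GFP. The depth-scaled ratio was 9.65 in favour of GFP (exact binomial 95% interval 2.27 to 86.5, counting error only). Wnt5b had 3, 3 and 2 reads against 7, 4 and 14 (ratio 3.77, interval 1.65 to 9.67). Both failed the filter on low counts; with no filter, where 8.19% of all genes were lower, they were lower too, with edgeR adjusted p of 0.0238 and 0.0496. Wnt1, Wnt2, Wnt2b, Wnt3, Wnt7a, Wnt8a, Wnt8b and Wnt16 had 1 to 5 reads over the 6 libraries, and Wnt9b had 0. Counts of this size allow no comparison.

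**Figure D2:**
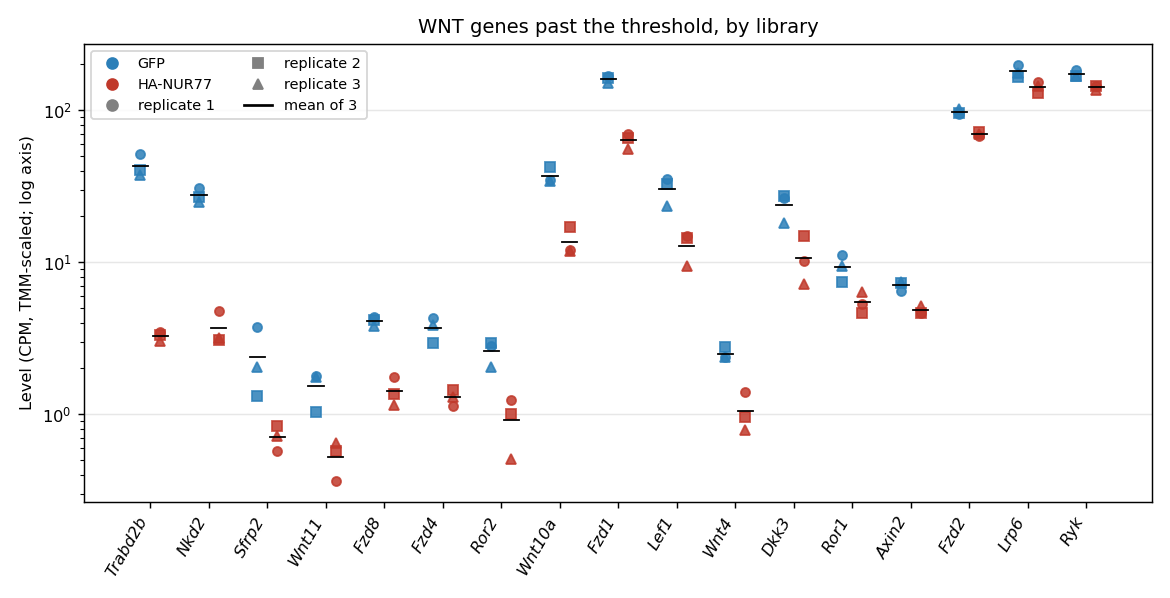
Level of the 17 WNT genes past the threshold in each library (vertical log axis, CPM), ordered from the largest fall to the smallest. Blue marks GFP, red HA-NUR77, the symbol the replicate number and the line the mean of 3; no red point reaches a blue point of the same gene.

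Of the 9 tested Frizzled receptors, 4 fell. Fzd1, Fzd2, Fzd4 and Fzd8 were lower, and Fzd3, Fzd5, Fzd6, Fzd7 and Fzd9 did not pass the test. Fzd1 (chromosome 5, 4753839 to 4758035, minus strand) stood at 69.5, 65.6 and 55.7 CPM in HA-NUR77 and at 169, 163 and 151 CPM in GFP. The lowest GFP library was far above the highest HA-NUR77 library, a 2.52-fold fall (log2 fold change −1.33, SE 0.10, edgeR adjusted p = 0.000219). Fzd2 stood at 67.8, 71.7 and 69.7 CPM against 93.7, 95.3 and 102 CPM (log2 fold change −0.48, SE 0.07, edgeR adjusted p = 0.00283). Fzd4, the receptor for Norrin in retinal vessels, stood at 1.14, 1.44 and 1.29 against 4.27, 2.95 and 3.86 CPM, and Fzd8 at 1.76, 1.35 and 1.15 against 4.33, 4.19 and 3.79 CPM. Both fell 2.85-fold from low levels, with edgeR adjusted p of 0.00358 and 0.00268.

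Fzd7, the receptor of WNT7A on satellite cells, stood at 80.3, 70.3 and 79.8 CPM against 79.5, 83.9 and 89.1 CPM. Those libraries overlapped, and the 95% interval of its fold was 0.801 to 1.04 (edgeR adjusted p = 0.248). The interval for Fzd6 was 0.914 to 1.17 and for Fzd5 0.758 to 1.18. For Fzd3 it was 0.745 to 1.36 and for Fzd9, with 155 reads in all, 0.699 to 1.49. Fzd10 had no read.

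The order of the Frizzled genes per exon length differed between the groups. In GFP, Fzd1 led with 144 ± 11.5 TPM, followed by Fzd2 with 99.6 ± 2.48 and Fzd7 with 69.8 ± 2.37 TPM (SD, n = 3). In HA-NUR77 the order was Fzd2 with 67.8 ± 1.91, Fzd7 with 60.3 ± 4.35 and Fzd1 with 54 ± 6.42 TPM. Fzd7 overlapped with Fzd1 there, at 63.5, 55.4 and 62.2 TPM against 59.4, 55.8 and 46.9 TPM. The 9 tested Frizzled genes summed to 239, 229 and 221 TPM in HA-NUR77 and 374, 364 and 361 TPM in GFP. Fzd1 held 24.9%, 24.3% and 21.2% of that sum against 41.4%, 40% and 36.5%, and Fzd7 26.6%, 24.1% and 28.2% against 18.1%, 19.1% and 20%. These shares are descriptions without a test.

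**Figure D3:**
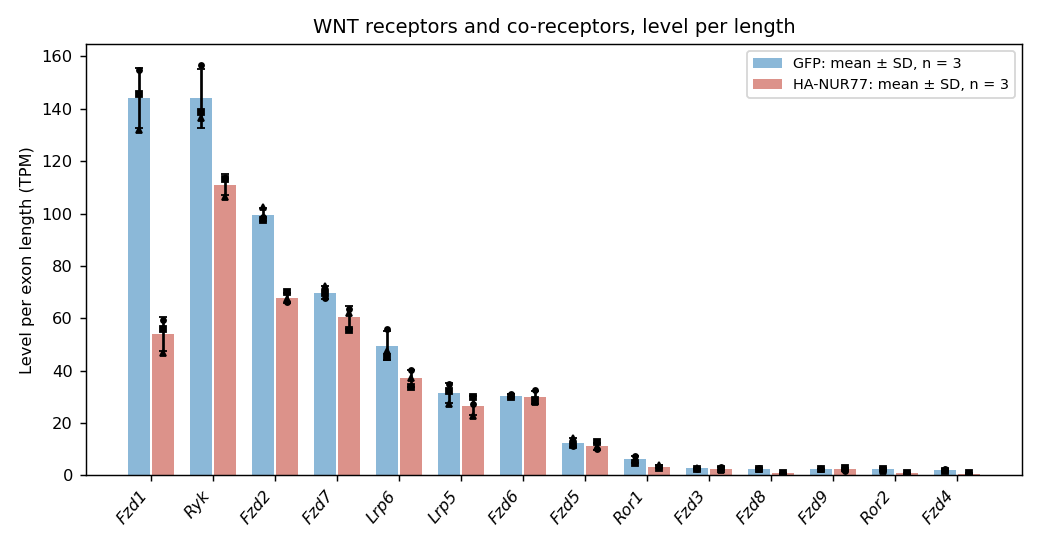
Level per exon length (vertical axis, TPM) of the 14 tested WNT receptors and co-receptors, ordered by their GFP mean; bars are means with SD of 3 libraries and points are libraries. Fzd1 is at 144 TPM in GFP and 54 TPM in HA-NUR77, while Fzd6 is at 30.4 and 29.8 TPM.

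Of the co-receptors and the receptors of the other branches, Lrp6, Ryk, Ror1 and Ror2 fell and Lrp5 did not pass the test. Ryk, a receptor with an inactive kinase domain, stood at 144, 144 and 136 CPM against 185, 168 and 168 CPM (log2 fold change −0.30, SE 0.07, edgeR adjusted p = 0.0193). Lrp6 stood at 154, 129 and 144 CPM against 199, 165 and 176 CPM (log2 fold change −0.34, SE 0.10, edgeR adjusted p = 0.0383). The groups were separate in both genes, in Lrp6 by a small gap. Lrp6 has the longest exon sequence of the set, 13672 bases, and with offsets for exon length and GC content its log2 fold change was −0.18 (adjusted p = 0.115). Its call was also lost without any 1 library other than GFP replicate 2 (adjusted p from 0.0601 to 0.124). Lrp5, the other co-receptor, stood at 72.7 ± 9.41 against 81 ± 8.16 CPM (SD, n = 3), with an interval of its fold of 0.747 to 1.08 (edgeR adjusted p = 0.352).

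Ror1 and Ror2 encode receptors for WNT5A that carry a kinase domain. Ror1 stood at 5.27, 4.63 and 6.39 CPM against 11.2, 7.35 and 9.41 CPM, a 1.73-fold fall (log2 fold change −0.79, SE 0.19, edgeR adjusted p = 0.0231). Ror2 stood at 1.24, 1 and 0.503 CPM against 2.79, 2.95 and 2.03 CPM, a 2.73-fold fall (log2 fold change −1.45, SE 0.32, edgeR adjusted p = 0.0162). Both were lower in each HA-NUR77 library than in each GFP library. Without 1 library the call of Ryk was lost in 3 fits (adjusted p from 0.0595 to 0.0676), that of Ror1 in 3 (0.0617 to 0.0846) and that of Ror2 in 1 (0.0632, without GFP replicate 1).

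The largest fall among the 30 tested genes was in the extracellular antagonists, a class that holds secreted proteins and the membrane-bound product of Trabd2b. Trabd2b (chromosome 4, 114406724 to 114615098) encodes TIKI2, a protease of the cell surface that inactivates WNT proteins by removing their first residues. It had 67, 76 and 42 reads in HA-NUR77 and 868, 586 and 551 in GFP. Its level was 3.46, 3.32 and 3.02 CPM against 51.5, 40.2 and 37.3 CPM, so the 3 HA-NUR77 libraries lay close together and far below the GFP libraries. The fall was 13.1-fold (95% interval of the log2 fold change −4.07 to −3.35, edgeR adjusted p = 4.11e-05). Dkk3, a divergent member of the Dickkopf family, was placed in this class by its symbol. It stood at 10.2, 14.8 and 7.18 CPM against 26.4, 27.2 and 18 CPM (log2 fold change −1.14, SE 0.26, edgeR adjusted p = 0.0197). Sfrp2 encodes a decoy that carries a Frizzled-like domain. It stood at 0.569, 0.83 and 0.718 CPM against 3.74, 1.3 and 2.03 CPM (log2 fold change −1.74, SE 0.43, edgeR adjusted p = 0.0238). GFP replicate 1 lay well above the other GFP libraries for Sfrp2, and without it the log2 fold change was −1.23 (adjusted p = 0.0645). The Dkk3 call was lost without a low-count filter (adjusted p = 0.0631) and when HA-NUR77 replicate 1, GFP replicate 1 or its replicate 2 was left out (0.0555 to 0.0759), and that of Sfrp2 also without HA-NUR77 replicate 1 (0.0845) or 3 (0.0534).

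Dkk2 stood at 1.18 ± 0.169 against 1.1 ± 0.363 CPM (SD, n = 3; edgeR adjusted p = 0.859), with an interval of its fold of 0.645 to 1.74. Sfrp1 had 3, 3 and 6 reads in HA-NUR77 and 3, 0 and 0 in GFP, a ratio of 3.32 (exact binomial 95% interval 0.895 to 18.3) that includes 1. Sfrp4 had 37 reads against 35. Notum, a secreted lipase that strips the lipid from WNT proteins and is itself a pathway target, had 6 reads against 10, so a difference was not detectable at this depth. Dkk1, Dkk4 and Sfrp5 had no read.

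Of the R-spondins, ligands that stabilise Frizzled and LRP6 at the cell surface, Rspo3 was tested and did not pass. It stood at 3.1, 2.36 and 2.59 CPM against 3.5, 3.64 and 3.04 CPM (log2 fold change −0.34, SE 0.18, edgeR adjusted p = 0.202), and the groups overlapped. Rspo2 had 1, 1 and 1 reads against 6, 7 and 3, a ratio of 6.43 in favour of GFP (exact binomial 95% interval 1.84 to 34.5). Rspo2 failed the low-count filter. With no filter, where 8.19% of all genes were lower, its edgeR adjusted p was 0.0301. Rspo1 had no read.

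Of the intracellular genes, the feedback inhibitors Nkd2 and Axin2 and the transcription factor Lef1 fell, and Tcf7 did not pass. Nkd2 (chromosome 13, 73818534 to 73847631, minus strand) encodes a Dishevelled-binding inhibitor. It had 206 reads in HA-NUR77 against 1279 in GFP, or 4.76, 3.06 and 3.16 CPM against 30.8, 26.9 and 24.8 CPM. The groups were far apart, and the fall was 7.5-fold (log2 fold change −2.91, SE 0.18, edgeR adjusted p = 0.000141). Its relative Nkd1 had no read. Axin2, the scaffold of the destruction complex most often used as a readout of canonical signalling, stood at 4.65, 4.63 and 5.17 CPM against 6.47, 7.28 and 7.44 CPM. That was a 1.47-fold fall (log2 fold change −0.55, SE 0.13, edgeR adjusted p = 0.0215), small beside that of Nkd2. The Axin2 call was lost when replicate 1 (adjusted p = 0.0767) or 2 (0.0582) of HA-NUR77, or replicate 2 of GFP (0.0605), was left out.

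Lef1 (chromosome 3, 131110471 to 131224356) encodes a DNA-binding partner of beta-catenin. It stood at 14.7, 14.3 and 9.48 CPM against 35.2, 32.5 and 23.3 CPM (log2 fold change −1.23, SE 0.21, edgeR adjusted p = 0.0064). An exon of Lef1 overlaps one of another gene on the opposite strand, as do exons of Axin2, Sfrp2 and Wnt11 among the lower genes. Replicate 3 was the lowest in both groups, and the log2 ratios of same-numbered libraries were −1.26, −1.18 and −1.30. Tcf7, the gene for TCF1, stood at 26.1, 28.8 and 25.6 CPM against 27.4, 31.9 and 30.3 CPM (log2 fold change −0.15, SE 0.09, edgeR adjusted p = 0.239). Those groups overlapped, and with the replicate block and offsets for length and GC content together the value was −0.25 (adjusted p = 0.0114). In all 17 called genes, each of the 3 same-numbered ratios was below 0, which follows from the lack of overlap between the groups and adds nothing to it.

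Further genes of the pathway were read from lists by function, and their calls ran in both directions. The shares over all genes to set beside these counts are 13.2% lower and 12.4% higher, or 24.6% and 23.5% with the block. Of 11 tested genes of WNT secretion and receptor turnover, 3 were lower and 1 higher, with a median log2 fold change of −0.40. With the block, 7 were lower and 2 higher, and without HA-NUR77 replicate 2, 5 were lower. Lgr5, a receptor for R-spondins, had 4 reads against 59 (1, 2 and 1 against 18, 21 and 20), a ratio of 17.8 in favour of GFP (exact binomial 95% interval 6.59 to 67.5; edgeR adjusted p = 0.000759). Lgr5 met the low-count filter through its GFP libraries alone, so it was tested only because it was high there. Tpbg, a membrane glycoprotein, fell 1.77-fold (adjusted p = 0.00886), and Znrf3, a ubiquitin ligase that removes Frizzled from the surface, fell 1.33-fold (adjusted p = 0.0215). Apcdd1, a membrane inhibitor of WNT and a known target, rose 3.42-fold (8.06 ± 0.335 against 2.34 ± 0.434 CPM, SD, n = 3; adjusted p = 0.000573).

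Of 19 tested genes of the cytoplasmic chain, 3 were lower (15.8%, near the 13.2% of all genes) and 1 higher, with a median of −0.08. With the block, 7 were lower (36.8%, against 24.6%) and 2 higher (10.5%, against 23.5%). The lower genes were Apc (1.64-fold, edgeR adjusted p = 0.0292) and Amer1 (1.19-fold, 0.025), both of the destruction complex, and Ctnnbip1 (1.36-fold, 0.0212), which keeps beta-catenin from TCF factors. Apc2 rose 1.6-fold (adjusted p = 0.0165). Ctnnb1, the gene for beta-catenin, stood at 616 ± 33.5 against 653 ± 43.3 CPM (SD, n = 3; adjusted p = 0.495). In the edgeR fits without HA-NUR77 replicate 1 or without GFP replicate 1, 0 of this list passed in either direction, with 4 lower and 1 higher at an unadjusted p under 0.05 in each. Without HA-NUR77 replicate 3 or GFP replicate 2, 1 was lower.

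Of 16 tested nuclear cofactors, 3 were lower (18.8%, against 13.2% of all genes) and 0 higher by edgeR, with a median of −0.15. DESeq2 and limma-voom also called 0 higher, and 0 were higher at an unadjusted p under 0.05. With the block, 8 were lower (50%, against 24.6%) and 1 higher. Those lower were Pygo1 (3.05-fold, edgeR adjusted p = 0.00232) and Bcl9 (1.66-fold, 0.00165), which link beta-catenin to chromatin, and the TCF factor Tcf7l2 (2.1-fold, 0.00267). Tcf7l1, another TCF factor, stood at a log2 fold change of −0.64 and an edgeR adjusted p of 0.0504. Its adjusted p was 7.11e-06 with the block and 0.0114 by DESeq2, and over the fits that left out 1 library it ran from 0.0201 to 0.16.

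Of 22 tested genes of the polarity and calcium branches, 6 were lower and 5 higher, with a median of −0.14. Lower were Ptk7 (1.95-fold, edgeR adjusted p = 0.00627) and Vangl2 (1.82-fold, 0.0113), membrane proteins of planar polarity, with Nfatc4 (2.27-fold, 0.00379), Nfatc2, Camk2a and Dact1. Higher were Celsr3, a large cadherin (5.17-fold, adjusted p = 0.00571), the formin Daam1, Rhoa, Camk2d and Camk2g, the last 4 by 1.19-fold to 1.37-fold. Each fit without 1 library, whichever of the 6 it was, called 2 or 3 higher, and the fit without GFP replicate 1 called 3 lower.

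Of 17 tested genes listed as further beta-catenin targets, 7 were lower and 3 higher, with a median of −0.37. The most abundant of the lower genes was Ccn4, at 202 ± 31 against 652 ± 38.5 CPM (SD, n = 3). It encodes a matricellular protein, and its former symbol Wisp1 refers to induction by WNT1. Ccn4 fell 3.22-fold (edgeR adjusted p = 0.000224). Tnfrsf19 (2.93-fold, adjusted p = 0.0017), Tbx3 (1.36-fold, 0.0316) and Ppard (1.19-fold, 0.0386) were among the other lower genes, with Lgr5 and Znrf3 named above. The 3 higher genes were Apcdd1, Ccnd1, the gene for cyclin D1, which rose 3.59-fold (adjusted p = 0.00268), and Ccn5, a relative of Ccn4, which rose 5.79-fold (adjusted p = 0.00217). Known targets lay on both sides. With replicate 1 or 3 of HA-NUR77, or replicate 1 of GFP, left out, 4 were lower.

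**Figure D4:**
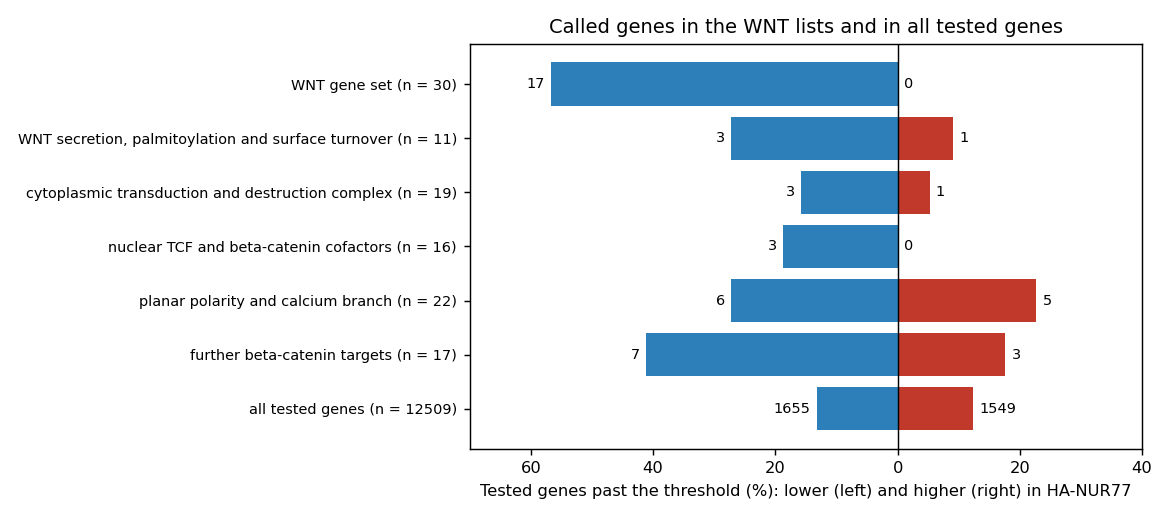
Share of tested genes past the adjusted threshold (horizontal axis, percent), lower in HA-NUR77 to the left and higher to the right, for the WNT gene set, the 5 further pathway lists and all 12509 tested genes; numbers at the bars are genes. The WNT gene set has 17 lower and 0 higher, and the polarity and calcium list 6 and 5.

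Most markers of muscle cells did not pass the test, while their summed levels were higher in HA-NUR77. The 12 myotube markers summed to 19971 to 23422 CPM in HA-NUR77 and 13199 to 18588 CPM in GFP. Of them 2 rose (16.7%, against 12.4% of all genes), Myh3 and Myh8 (1.53-fold and 1.73-fold, edgeR adjusted p = 0.022 and 0.00331), and with the block 9 rose (75%, against 23.5%) and 1 fell; Acta1, the most abundant, did not pass (adjusted p = 0.0583). The 8 myoblast markers summed to 6225 to 6996 against 4149 to 5412 CPM, and 2 rose, Itga7 (1.64-fold) and Cdh15 (1.45-fold), while with the block 4 rose and 1 fell. The 7 fibroblast and progenitor markers summed to 664 to 814 against 499 to 542 CPM. There Ly6a (2.32-fold), Cd34 (1.76-fold) and Dpt (2.83-fold) rose and Pdgfra fell 1.97-fold, Dcn was the most abundant and did not pass, and Thy1 had no read. The part of these genes in the WNT results was not tested.

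Markers of endothelial cells, macrophages and adipocytes were low, and those of smooth muscle were abundant. The endothelial list summed to at most 1.3 CPM and the macrophage list to at most 2.9 CPM in any library, with Csf1r higher (3.28-fold, edgeR adjusted p = 0.0443). The adipocyte list summed to at most 5.46 CPM, nearly all of it Pparg (1.71-fold higher, adjusted p = 0.0362), with Adipoq, Plin1, Lep and Cidec at 0. Epcam and Krt18 had no read, while Krt14 fell 3.8-fold from 8.76 CPM (adjusted p = 0.00153) and Cdh1 2.34-fold. In the osteoblast and chondrocyte list, at 87.8 to 99 CPM in the 6 libraries, Sox9 rose 1.23-fold, and Acan and Ibsp had no read. The smooth muscle list summed to 2301 to 3410 CPM in HA-NUR77 and 2898 to 3144 CPM in GFP, most of it Acta2 (adjusted p = 0.655), and in it Cnn1 fell 4.51-fold (adjusted p = 0.00762).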

How the data were processed

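The deposited values are raw whole-number counts, with 1 table for each library and Ensembl identifiers for genes. The submitters' processing notes name TopHat2 2.1, HTSeq, DESeq2 and the build mm10. The labels' protocols describe a strand-specific poly(A) kit. The annotation used for counting and its strand setting are not given in the sources used here, so reads of the 10 members with an exon overlapping an exon of another gene are uncertain.

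Counts were fitted over all 12509 genes that passed edgeR's filterByExpr (minimum count 10), with TMM factors and the robust quasi-likelihood test (edgeR 4.0.16, limma 3.58.1, DESeq2 1.42.0, R 4.3.3). The filter asks for enough reads in 3 libraries, so a gene can pass through 1 group alone. Among the genes named as called, Wnt11, Sfrp2, Ror2, Lgr5 and Nfatc2 passed through GFP in this way, and Celsr3 through HA-NUR77. CPM uses TMM-scaled totals. TPM uses union exon lengths from GENCODE M21. Symbols were matched for 22888 of 23154 genes. SE is the absolute log2 fold change over the root of the F statistic. The script was tested on simulated data. With 3 libraries a group, p-values measure the spread between dishes of 1 line per construct.

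Samples were grouped by title, which the growth protocol of the GFP samples contradicts. Same-numbered libraries deviated together (correlations 0.25, 0.55 and 0.47, each above 0.1); this pairing comes from the data and no label states it. The members, lists and motifs were chosen with earlier results of these data known. By the naming rule, members past the threshold, the 12 members listed by symbol and the most abundant member of each role are named. The rule adds the 3 genes of smallest adjusted p in each pathway list. In each cell type list it asks for the most abundant gene and up to 2 others past the threshold. The endothelial list is given by its sum alone. Further members and list genes, such as Wnt5a, Rspo2, Fzd7, Ctnnb1, Tcf7l1, Apc, Vangl2, Ccnd1, Ccn5 and Dpt, were chosen after their values were seen. Totals of 13906096 to 22821446 counts set the precision, and intervals on reads cover counting error only. One gene of the target list is counted there but not reported here by name.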

Additional observations from a re-analysis of the deposited data

How the results depend on the processing

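The 16 alternatives changed normalisation, the low-count filter, the test, length and GC offsets, the replicate block or the libraries used. In each of them 0 members were higher, and 9 of the 17 lower members (Fzd1, Fzd2, Fzd4, Fzd8, Lef1, Nkd2, Trabd2b, Wnt10a and Wnt4) passed in all 16. No lower member changed direction. Fits without 1 library gave 10 to 16 lower members, 642 to 1489 higher and 850 to 1572 lower genes in all. Wnt9a, not past the threshold, ranged in those fits from a log2 fold change of −0.22 (without HA-NUR77 replicate 2) to 0.038 (without HA-NUR77 replicate 1), where its sign changed. The cause was not tested. Members with few reads are limited by depth.

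With the replicate block, 2942 genes were higher and 3071 lower. The secretion list then had 2 higher and 7 lower, the cytoplasmic list 2 and 7, and the nuclear list 1 and 8. The block changed no call among the members. With the block and length and GC offsets, 3021 genes were higher and 2841 lower; the secretion list had 2 higher and 6 lower, the cytoplasmic list 3 higher, the nuclear list 1 higher and the polarity list 8 higher. The offsets without the block gave 2 higher in the cytoplasmic list, and DESeq2 gave 2 higher in the secretion list. Where only the higher genes of a list are counted here, its lower genes are left out. Such a count gives no direction for the list.

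Without 1 library, the secretion list had 1 to 2 higher and 2 to 5 lower, the cytoplasmic list 0 to 1 higher and 0 to 3 lower, and the nuclear list 0 to 1 higher and 3 to 4 lower. The polarity list had 2 to 3 higher and 3 to 6 lower, and the target list 3 higher and 4 to 7 lower.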

Other observations

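Wnt7b and Wnt6 varied more between replicate numbers than between groups. Wnt7b stood at 2.28, 4.24 and 1.01 CPM in HA-NUR77 replicates 1, 2 and 3 and at 1.3, 3.3 and 0.88 CPM in the GFP replicates. The log2 ratios of same-numbered libraries were 0.80, 0.36 and 0.19, all above 0. Wnt6 stood at 1.09, 1.48 and 0.574 against 1.36, 2.2 and 1.08 CPM, with log2 ratios of −0.33, −0.57 and −0.91. In both genes replicate 2 was the highest and replicate 3 the lowest in each group. With the replicate number as a block, the edgeR adjusted p was 0.0903 for Wnt7b and 0.0963 for Wnt6, so neither passed.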
